A study of Homo sapiens with 6 samples.

Results

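The miR-181 family was followed in K562 cells, a human erythroleukaemia line derived from a blast crisis of chronic myeloid leukaemia. Cells that respond to azacitidine (sensitive) were compared with cells of the same line kept for months in increasing doses of the drug (resistant). Its members were taken by name from the table of mature miRNA counts: hsa-miR-181a-5p, hsa-miR-181a-3p, hsa-miR-181a-2-3p, hsa-miR-181b-5p, hsa-miR-181b-3p, hsa-miR-181b-2-3p, hsa-miR-181c-5p, hsa-miR-181c-3p and hsa-miR-181d-5p, written below without the species prefix. These are 9 of the 2656 miRNAs in the table, and all 9 had enough counts to be tested, among 768 tested miRNAs. There were 3 libraries of each kind, labelled as biological replicates. Azacitidine is a cytidine analogue that lowers DNA methylation by trapping DNA methyltransferases. The names of all libraries, sensitive and resistant, carry the letters NT, which the labels do not spell out. The labels otherwise name no treatment at harvest and no separate selections of resistant cells. Differences of the selected population and effects of drug still present therefore cannot be told apart, and p-values cover the spread between these libraries.

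A miRNA hairpin is cut into a pair of strands, the 5p and the 3p arm, and usually 1 of them, the guide, is kept in Argonaute to repress transcripts that match its seed while the other, the passenger, is largely degraded. In the miR-181 family the 5p arms are the usual guides. They are known in blood for roles in lymphoid development and in setting the sensitivity of the T cell receptor, and miR-181 also varies between classes of acute myeloid leukaemia. Because several hairpins make the same guide, the passenger arms are what tells the loci apart.

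The mature sequences, from RefSeq (GRCh38.p14, all 9 names matched), are shown because they decide which locus a count can be assigned to. Capitals mark the seed, bases 2 to 8 from the 5′ end. The guides share 1 seed:
miR-181a-5p: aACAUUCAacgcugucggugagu
miR-181b-5p: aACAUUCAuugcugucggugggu
miR-181c-5p: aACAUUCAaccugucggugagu
miR-181d-5p: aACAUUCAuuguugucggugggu

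The 3p arms differ between loci:
miR-181a-3p: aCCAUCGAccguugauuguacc
miR-181a-2-3p: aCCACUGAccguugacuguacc
miR-181b-3p: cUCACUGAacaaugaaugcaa
miR-181b-2-3p: cUCACUGAucaaugaaugca
miR-181c-3p: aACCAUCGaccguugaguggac

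Positions are counted from the 5′ end of the first named sequence. miR-181a-3p and miR-181a-2-3p are separated by 3 substitutions (U5C, C6U and U16C), 2 of them in the seed. miR-181b-3p and miR-181b-2-3p differ by A9U and by the last base of miR-181b-3p, which the other lacks. miR-181b-5p and miR-181d-5p differ by C12U alone, so counts of this pair depend on how strictly reads were matched, which is not given in the sources used here. miR-181c-5p is miR-181a-5p without base 11. Of the 2656 names in the table, 2367 had a reference sequence. Outside the family, miR-4262 was the other miRNA among these with the guide seed, and it had 0 counts in all 6 libraries.

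The hairpins lie in pairs at 3 loci (GRCh38, GENCODE). MIR181A1 (chr1:198859044-198859153) and MIR181B1 (chr1:198858873-198858982) are on the minus strand, 61 bases apart, in an intron of the long non-coding host gene MIR181A1HG. MIR181A2 (chr9:124692442-124692551) and MIR181B2 (chr9:124693710-124693798) are on the plus strand, 1158 bases apart, in an intron of MIR181A2HG and antisense to an intron of NR6A1. MIR181C (chr19:13874699-13874808) and MIR181D (chr19:13874875-13875011) are on the plus strand, 66 bases apart, within an intron of the NANOS3 gene as annotated. miR-181a-5p is made by both MIR181A1 and MIR181A2, as the hairpins show, with both arms in capitals:
MIR181A1: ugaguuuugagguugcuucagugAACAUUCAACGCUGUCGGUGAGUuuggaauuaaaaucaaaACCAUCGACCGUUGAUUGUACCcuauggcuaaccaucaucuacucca
MIR181A2: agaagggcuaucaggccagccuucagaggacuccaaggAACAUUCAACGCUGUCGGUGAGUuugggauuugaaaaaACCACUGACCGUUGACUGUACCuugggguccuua

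Likewise, MIR181B1 and MIR181B2 share miR-181b-5p. The counts of miR-181a-5p and miR-181b-5p are therefore sums over chromosomes 1 and 9, while each 3p arm above belongs to 1 hairpin, and miR-181c and miR-181d belong to chromosome 19.

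Libraries held 3291500 to 12563945 counts. Resistant replicate 3, the smallest, stood apart from the others: its log2 CPM (counts divided by the scaled library size, in units of 1e6 counts) correlated with those of resistant replicates 1 and 2 at Pearson's r of 0.875 and 0.864 across miRNAs, against 0.995 between these, and miR-92a-3p took 58.6% of its counts against 10.5% to 20.2% in the other libraries. Where leaving out this library changes the call of a member, both values are given. The labels give the cell type as myeloblast. Of 8 blood cell miRNAs used as markers, 6 were tested, led in sensitive cells by miR-142-3p, miR-486-5p and miR-142-5p, and their summed level was 17358 to 19778 CPM in sensitive and 20494 to 64755 CPM in resistant libraries. The higher resistant sum came from miR-486-5p alone, at 63305 CPM in resistant replicate 3 (log2 fold change 2.34, edgeR adjusted p = 0.130). Without miR-486-5p the sum was 12205 to 13700.2 CPM in sensitive and 1450 to 10912 CPM in resistant libraries. The other 5 tested markers had negative log2 fold changes, with 0 called, where 2.08% of all tested miRNAs were lower. Without resistant replicate 3, miR-223-3p was called lower (log2 fold change -0.99, edgeR adjusted p = 0.00733), where 14.4% of all tested miRNAs were. The rest of them were not called, miR-144-3p with a positive value (0.09). The part of these markers in the results below was not tested. miR-155-5p and miR-150-5p, of activated and mature lymphoid cells, had at most 7 counts in any library. 6 markers of other tissues summed to 53.1 to 110 CPM in sensitive and 53.8 to 98.2 CPM in resistant libraries, most of it miR-375-3p, and those of brain (miR-124-3p) and squamous epithelium (miR-205-5p) had 0 to 2 counts per library.

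Both chromosome 1 passenger arms were detected in every sensitive library and had no counts in resistant cells, and in sensitive cells miR-181a-3p was far more abundant than miR-181b-3p. miR-181a-3p had 1372, 808 and 799 counts in sensitive replicates 1 to 3, which is 114, 82.5 and 148 CPM (scaled by trimmed mean of M values, TMM, factors). It had 0 counts in each resistant library, where 3 counts, the limit that a count of 0 allows, would be 0.305, 0.226 and 1.18 CPM. The groups were thus separated by more than the spread of either. miR-181a-3p fell at least 981-fold, taking the sensitive mean over a floor of 3 counts in all resistant libraries together (edgeR quasi-likelihood adjusted p = 0.00219). Without resistant replicate 3 the bound was 851-fold (edgeR adjusted p = 3.68e-07). Such bounds allow for counting error in resistant libraries and not for the spread between libraries. With 1 library left out the log2 bound ran from -10.04 to -8.78. miR-181b-3p, from the neighbouring hairpin, had 56, 42 and 57 counts in sensitive replicates 1 to 3 and 0 in each resistant library. It fell at least 55.5-fold from 6.50 ± 3.51 CPM (SD, n = 3; edgeR adjusted p = 0.0154). Its call was lost when any sensitive replicate or resistant replicate 1 was left out (edgeR adjusted p = 0.0581 to 0.109). miR-181a-3p passed whichever of the 6 libraries was left out (edgeR adjusted p = 3.68e-07 to 0.0490), which gives no separate support. Both arms passed the filter on low counts through the sensitive libraries alone, so among the miRNAs tested they had to differ, and the counts themselves are the result to read. Both were also called without that filter.

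Among the 645 miRNAs with at least 10 counts in every sensitive library, 2 (0.31%) had 0 counts in all resistant libraries, and these were miR-181a-3p and miR-181b-3p. No miRNA with at least 10 counts in every resistant library was at 0 in all sensitive ones (0 miRNAs).

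**Figure D1:**
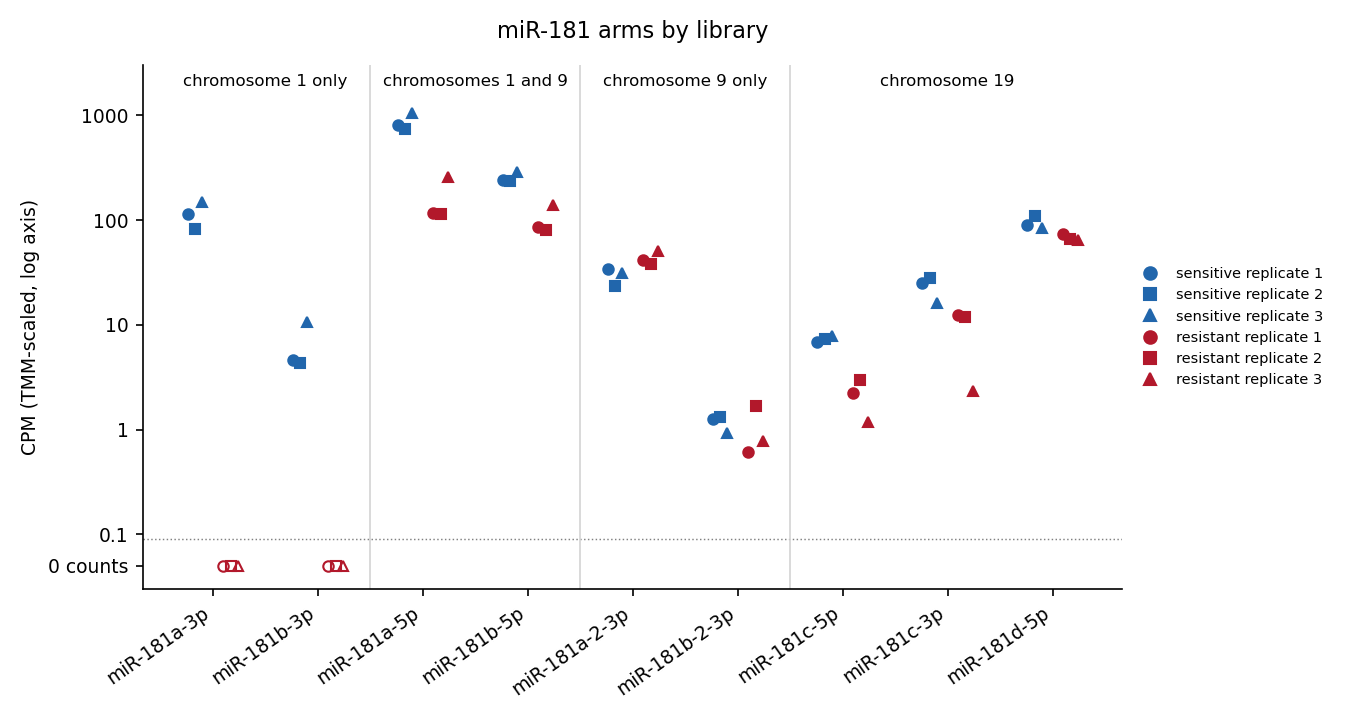
Level of each miR-181 arm in every library, in TMM-scaled CPM on a log axis, arranged by the loci that can make it. Blue marks are sensitive and red marks resistant libraries, and open red marks on the lowest line are libraries with 0 counts, as for both chromosome 1 passenger arms in all 3 resistant libraries.

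The chromosome 9 passenger arms showed no such loss. miR-181a-2-3p had 33.9, 23.7 and 31.3 CPM in sensitive replicates 1 to 3 and 41.9, 38.0 and 50.7 CPM in resistant replicates 1 to 3. Every resistant value was above every sensitive value, by a margin that the test did not call (log2 fold change, resistant over sensitive, 0.55, SE 0.38, edgeR adjusted p = 0.365). The approximate 95% interval of that log2 fold change ran from -0.32 to 1.43, so a fall of the size seen for miR-181a-3p lay outside it. Without resistant replicate 3 the log2 fold change was 0.48 (edgeR adjusted p = 0.188). miR-181b-2-3p was near the limit of detection, with 15, 13 and 5 counts in sensitive and 6, 22 and 2 counts in resistant libraries, and its groups overlapped (log2 fold change -0.13, 95% interval -1.41 to 1.14, edgeR adjusted p = 0.875). The sign of this value depended on the scaling (0.10 with library totals).

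Set against each other within a library, which needs no scaling, the 3p arms divided the groups by locus. miR-181a-3p made up 77.1%, 77.7% and 82.5% of the miR-181a 3p counts of both loci in sensitive replicates 1 to 3 (exact 95% binomial intervals 75.1% to 79.1%, 75.0% to 80.2% and 80.0% to 84.9%). In resistant replicates 1 to 3 it was 0 of 412, 0 of 504 and 0 of 129 counts (exact 95% upper limits 0.891%, 0.729% and 2.82%). miR-181b-3p made up 78.9%, 76.4% and 91.9% of the miR-181b 3p counts in sensitive libraries. It was 0 of 30 counts in the resistant libraries together, which allows a share of up to 10% if 3 counts are taken as the limit. Intervals and limits cover counting error only, since the counts carry no molecular identifiers. The difference in log2 ratio between chromosome 1 and chromosome 9 arms had an exact two-sided permutation p of 0.1 for miR-181a and 0.1 for miR-181b, the smallest that 3 against 3 libraries can give. Adjusted over the 10 ratios computed, both became 0.111.

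**Figure D2:**
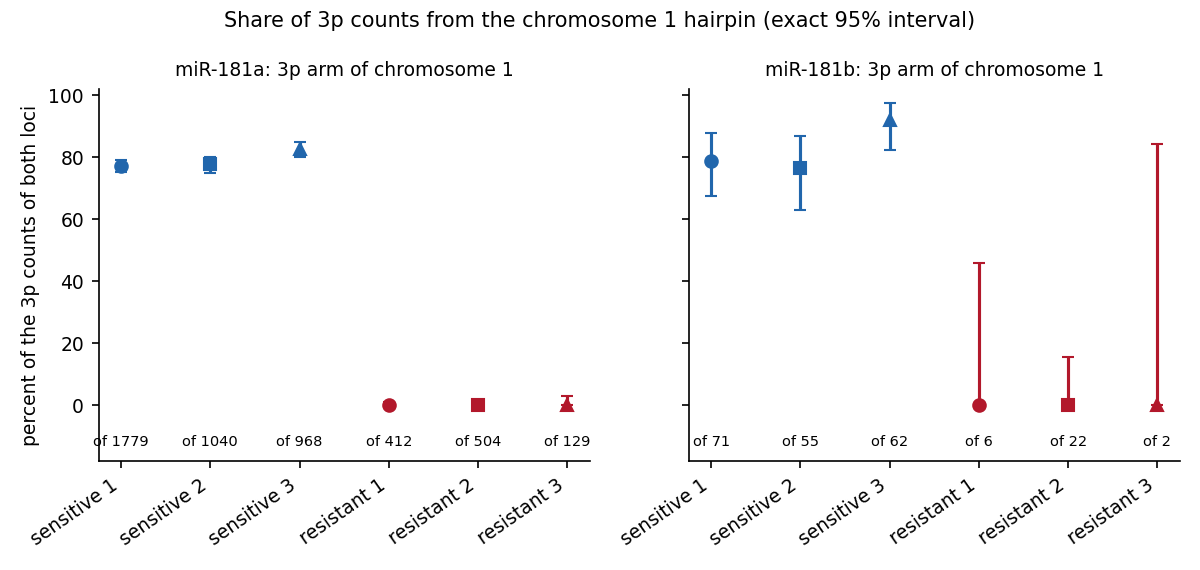
Percent of 3p counts that came from the chromosome 1 hairpin, for miR-181a (left) and miR-181b (right), per library, with exact 95% binomial intervals and the number of counts behind each value. The sensitive libraries lie between 76.4% and 91.9% and the resistant libraries at 0, with wide intervals for miR-181b, where resistant libraries held 2 to 22 counts.

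The guides that chromosomes 1 and 9 share were lower in resistant cells but remained detectable. miR-181a-5p, the most abundant member, had 803, 738 and 1059 CPM in sensitive replicates 1 to 3 and 116, 114 and 257 CPM in resistant replicates 1 to 3. The highest resistant value, in replicate 3, was below the lowest sensitive one. It fell 5.34-fold (log2 fold change -2.42, SE 0.48, 95% interval -3.52 to -1.31, edgeR adjusted p = 0.0355), and 7.25-fold without resistant replicate 3 (edgeR adjusted p = 5.99e-06). The call was lost with relative log expression (RLE) factors (edgeR adjusted p = 0.0657), with a minimum mean of 10 CPM (edgeR adjusted p = 0.0835) and when any library other than resistant replicate 3 was left out (edgeR adjusted p = 0.0814 to 0.266). By level it was miRNA 103 of the 768 tested in sensitive and 210 in resistant cells.

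miR-181b-5p had 244, 235 and 290 CPM in sensitive and 86.0, 79.7 and 138 CPM in resistant replicates 1 to 3. The groups did not overlap, and the log2 fold change was -1.34 (SE 0.40, edgeR adjusted p = 0.112), which did not pass. Without resistant replicate 3 it fell 2.98-fold (edgeR adjusted p = 0.000475). Both guides were higher in resistant replicate 3 than in the other resistant libraries, by 2.23 times for miR-181a-5p and 1.67 times for miR-181b-5p against their mean. The part of that library's skewed counts in these values was not tested.

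Per count of the chromosome 9 passenger, the guide was far scarcer in resistant cells. Sensitive replicates 1 to 3 had 23.7, 31.1 and 33.9 counts of miR-181a-5p per count of miR-181a-2-3p, and resistant replicates 1 to 3 had 2.77, 3.01 and 5.07. The sensitive mean was 29.6 ± 5.26 and the resistant mean 3.62 ± 1.26 (SD, n = 3 each; exact two-sided permutation p = 0.1, adjusted 0.111). The spread within each group was small beside that gap, resistant replicate 3 included. For miR-181b-5p per miR-181b-2-3p the ratios were 195, 177 and 314 in sensitive and 141, 48 and 176 in resistant libraries. These rest on 2 to 22 passenger counts per library, and the highest resistant ratio lay just under the lowest sensitive one.

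**Figure D3:**
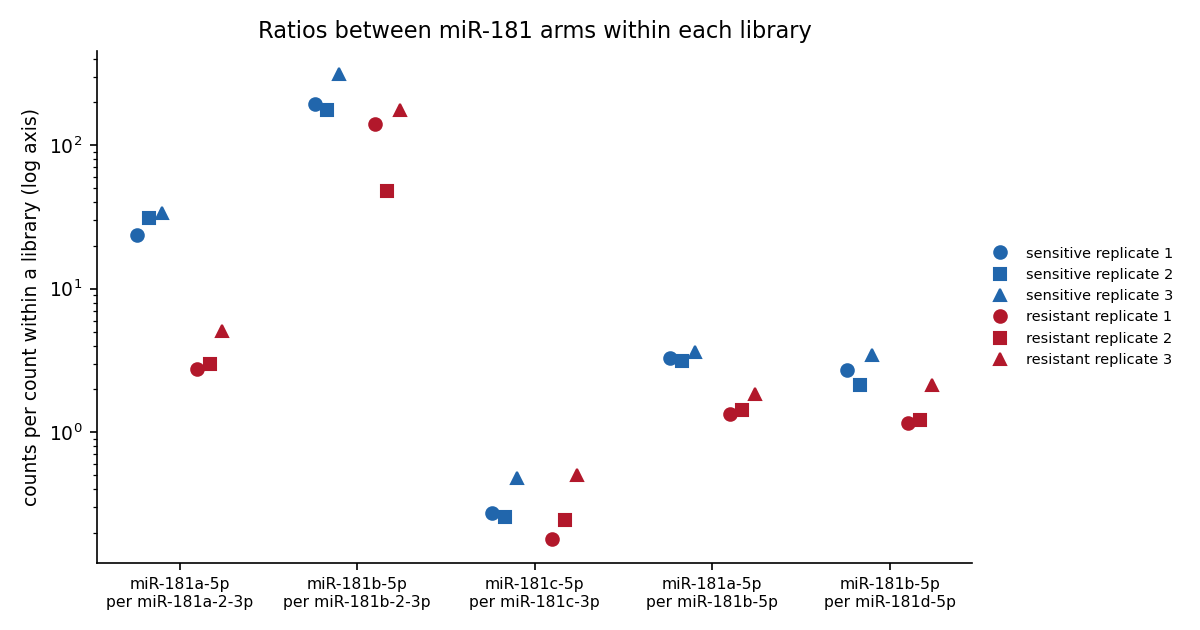
Ratios of counts between miR-181 arms within each library, on a log axis, for 5 pairs of arms. miR-181a-5p per miR-181a-2-3p lies between 23.7 and 33.9 in sensitive and between 2.77 and 5.07 in resistant libraries, while miR-181c-5p per miR-181c-3p overlaps between the groups.

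For 3 of the 4 guides the share of the 5p counts did not overlap between the groups. These shares make up a whole, so a fall of miR-181a-5p raises the others, and the 3 are not separate results. In mean CPM, miR-181b-5p (256 sensitive, 101 resistant) and miR-181d-5p (94.4 and 67.9) were lower in resistant cells, neither of them called. No test of a share could pass (0 of 8 did), since 3 against 3 libraries cannot give an exact permutation p under 0.1. miR-181a-5p was 70.5 ± 2.89% of the family's 5p counts in the sensitive group and 47.0 ± 7.61% in the resistant group, and miR-181b-5p was 21.0 ± 0.752% and 30.4 ± 0.469% (SD, n = 3 each). miR-181d-5p took 7.86%, 10.0% and 5.82% in sensitive and 26.5%, 25.0% and 14.0% in resistant replicates 1 to 3. Each of these 3 shares had an exact two-sided permutation p of 0.1, adjusted 0.114 over 8 shares. Counts of miR-181a-5p per count of miR-181b-5p were 3.29, 3.14 and 3.65 in sensitive and 1.35, 1.44 and 1.86 in resistant libraries, without overlap (exact two-sided permutation p = 0.1, adjusted 0.111).

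The chromosome 19 members, whose locus makes no arm shared with the others, were lower in resistant cells by differing amounts. None of them was called with the main settings. miR-181d-5p, the most abundant of them, had 89.9, 109 and 83.8 CPM in sensitive and 73.7, 65.7 and 64.4 CPM in resistant replicates 1 to 3. The groups did not overlap, yet the difference was not called (log2 fold change -0.47, SE 0.36, 95% interval -1.30 to 0.35, edgeR adjusted p = 0.413), with or without resistant replicate 3 (log2 fold change -0.38 without it, edgeR adjusted p = 0.262). miR-181c-5p had 6.91, 7.25 and 7.77 CPM in sensitive and 2.24, 2.94 and 1.18 CPM in resistant replicates 1 to 3. Its log2 fold change was -1.70 (SE 0.46, edgeR adjusted p = 0.0853), and it fell 2.68-fold without resistant replicate 3 (edgeR adjusted p = 0.00657).

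miR-181c-3p, the 3p arm of the same hairpin, had 25.1, 28.1 and 16.1 CPM in sensitive and 12.5, 12.0 and 2.36 CPM in resistant replicates 1 to 3. The value of resistant replicate 3 rests on 6 counts. Its log2 fold change was -1.33 (SE 0.61, edgeR adjusted p = 0.205), and it fell 1.82-fold without resistant replicate 3 (edgeR adjusted p = 0.0448). The balance between the arms of this hairpin was not shown to differ: there were 0.275, 0.258 and 0.483 counts of miR-181c-5p per count of miR-181c-3p in sensitive and 0.179, 0.245 and 0.50 in resistant libraries, with overlapping groups (exact two-sided permutation p = 0.7, adjusted 0.7). In this hairpin the 3p arm had the higher count in all 6 libraries. miR-181a-2-3p per miR-181c-3p, chromosome 9 over chromosome 19, was 1.35, 0.844 and 1.94 in sensitive and 3.35, 3.17 and 21.5 in resistant libraries (exact two-sided permutation p = 0.1, adjusted 0.111). miR-181d-3p, which is not among the members, had 0 to 4 counts per library and was not tested.

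**Figure D4:**
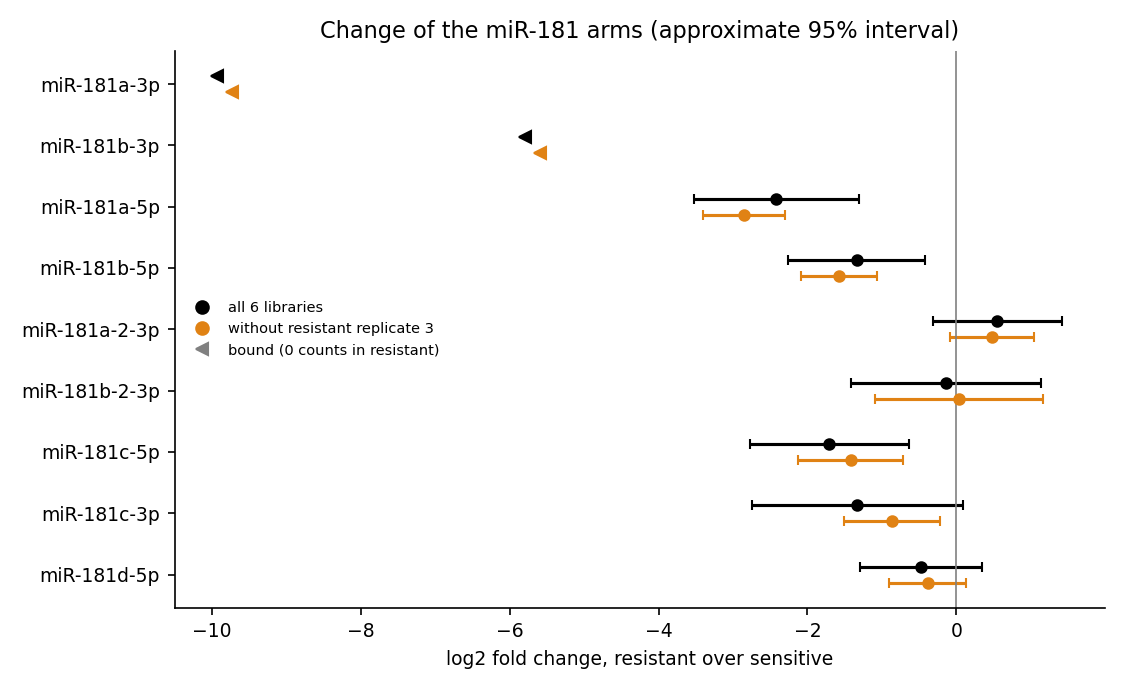
Log2 fold change, resistant over sensitive, of each miR-181 arm with its approximate 95% interval, with all 6 libraries (black) and without resistant replicate 3 (orange). Arrowheads are bounds for the arms with 0 counts in resistant libraries, at -9.94 for miR-181a-3p and -5.79 for miR-181b-3p with all libraries. The intervals of both chromosome 9 passengers include 0.

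Over the 9 members, 3 passed as lower and 0 as higher, where 2.08% of all tested miRNAs were lower and 2.08% higher (16 miRNAs each way; 16 lower and 27 higher with library totals). Of the 3, miR-181a-3p and miR-181b-3p were in the test through the sensitive libraries alone, so the count describes the family and supports nothing further. Without resistant replicate 3, 6 of the 9 were lower and 0 higher, where 14.4% of 822 tested miRNAs were lower and 13.7% higher. For 8 of the 9 members the 2 groups had no overlap in CPM, against 41.8% of all tested miRNAs. The members were chosen with earlier results of these data known. The median log2 fold change was -1.34 over the members and -0.11 over all tested miRNAs (-1.42 and 0.04 without resistant replicate 3). The median over all tested miRNAs was 0.09 with library totals and -0.01 with RLE factors, so values near 0 move with the scaling. Family counts together were 0.126%, 0.118% and 0.157% of the library in sensitive and 0.0394%, 0.0392% and 0.0398% in resistant replicates 1 to 3. The shares were alike in the 3 resistant libraries, but they are parts of all counts. Of these, miR-92a-3p took 20.2%, 17.5% and 58.6% in resistant replicates 1 to 3. Like shares therefore do not mean like levels of the family in these libraries.

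**Figure D5:**
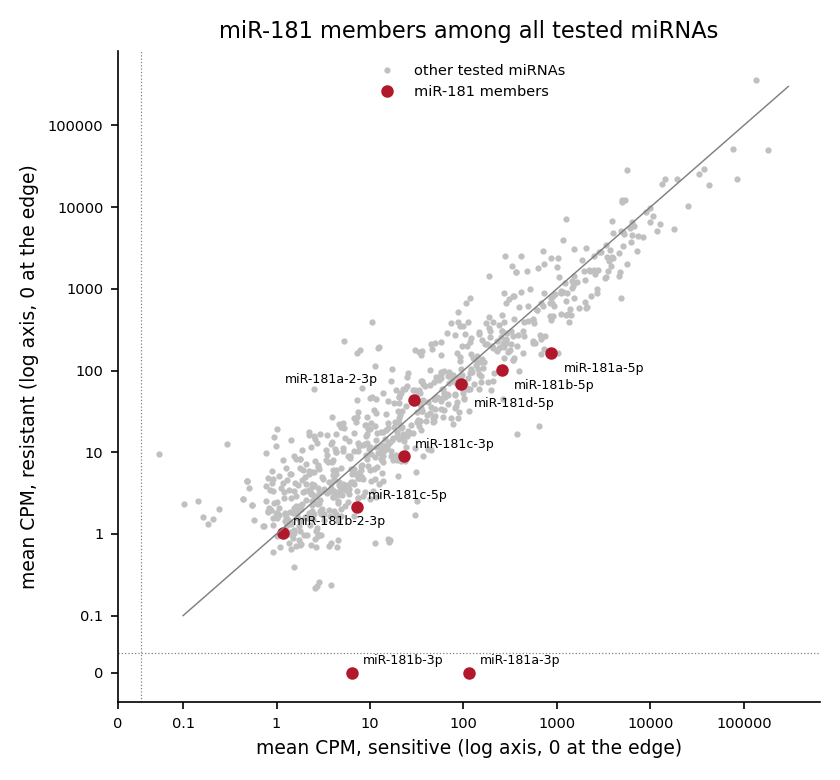
Mean CPM in resistant against sensitive libraries for the 768 tested miRNAs (grey) and the 9 miR-181 members (red), on log axes with 0 drawn at the edge. The line marks equal means, and the 2 points on the lower edge are miR-181a-3p and miR-181b-3p.

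The promoter window of MIR181A1HG is shown because both arms of the chromosome 1 locus that can be told apart were at 0 together and because azacitidine acts on methylation, which in mammals falls mostly on cytosines followed by guanine. RefSeq (GRCh38.p14) places it at chr1:198937380-198937679 on the minus strand, and the annotated start of the gene is 78.3 kb upstream of MIR181A1. Any CG dinucleotide would be in capitals, and there are 0:
MIR181A1HG: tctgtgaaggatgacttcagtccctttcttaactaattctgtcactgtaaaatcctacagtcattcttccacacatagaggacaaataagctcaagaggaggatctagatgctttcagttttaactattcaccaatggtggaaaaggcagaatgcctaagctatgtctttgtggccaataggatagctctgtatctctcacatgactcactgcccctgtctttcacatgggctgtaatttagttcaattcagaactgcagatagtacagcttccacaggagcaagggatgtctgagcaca

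CG reads the same on both strands. Of 35116 promoter windows of the same length, 96.0% hold at least 1 CG, with a median of 14. Its absence says only that these letters are not in this window, and neither methylation nor the host transcript was measured here.

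Neighbouring miRNAs gave a partial view of the 3 loci. They were sought among the 2367 of 2656 names (89.1%) with a reference sequence, so the counts of neighbours below may be incomplete. Of 8 other miRNAs within 5 Mb of the chromosome 1 locus none (0) had enough counts to be tested, so whether the loss extends beyond the pair was not detectable here. Of 13 near the chromosome 9 locus 4 were tested, with 0 called. The most abundant, miR-199b-3p, had a sensitive mean of 343 ± 63.7 CPM and a resistant mean of 133 ± 66.9 CPM (SD, n = 3 each; log2 fold change -1.36, edgeR adjusted p = 0.150; -0.95 without resistant replicate 3, edgeR adjusted p = 0.0108). Its counts equal those of miR-199a-3p, which has hairpins elsewhere, so they cannot be assigned to this locus. Of 32 near the chromosome 19 locus 10 were tested, with 0 called, and without resistant replicate 3 miR-199a-3p fell and miR-3189-3p rose. The counts of miR-199a-3p are those given above for miR-199b-3p and cannot be assigned to this locus either. The 32 include the cluster of miR-23a, miR-27a and miR-24-2, which lies 38 kb away. miR-27a-3p, its most abundant arm, had a sensitive mean of 5078 ± 1173 CPM and a resistant mean of 3347 ± 1988 CPM (SD, n = 3 each; log2 fold change -0.60, edgeR adjusted p = 0.522), and -0.13 without resistant replicate 3.

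Of 19 other miRNAs of blood lineages, 16 were tested, 2 fell and 0 rose, the fallers being miR-125b-5p and miR-99a-5p, with a median log2 fold change of -1.07 (-0.11 over all tested miRNAs, of which 2.08% fell and 2.08% rose). miR-126-3p, of endothelial and stem cells, was the most abundant with a sensitive mean of 42925 ± 7908 CPM and a resistant mean of 18633 ± 8478 CPM (SD, n = 3 each; log2 fold change -1.20, edgeR adjusted p = 0.166), and it was called without resistant replicate 3 (log2 fold change -0.82, edgeR adjusted p = 0.00883). Without that library 8 of the 16 fell and 1 rose, with a median of -0.65, where 14.4% of all tested miRNAs fell, 13.7% rose and the median was 0.04. Among 463 other miRNAs whose mean CPM was 10 or more, the profile over the 6 libraries most like that of miR-181a-5p was that of miR-625-5p (Pearson's r of log2 CPM 0.999), followed by miR-125b-5p (0.963), miR-4485-3p (0.945), miR-378c (0.931) and miR-625-3p (0.927). Those most like miR-181a-2-3p were miR-195-3p (0.989), miR-1255b-5p (0.979), miR-579-5p (0.969), miR-942-3p (0.966) and miR-1843 (0.953). The 6 libraries form 2 groups and share depth and scaling, so these values describe the profiles only.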

How the data were processed

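The authors deposited 1 table of raw read counts per mature miRNA for 6 libraries; the values are whole numbers and the column totals differ. Per the submitters' processing notes, reads were placed on GRCh38; for the aligner, counter and miRBase release the entry is: not given in the sources used here. Of 8 sets of names with the same mature sequence and with counts, 7 carried identical counts; no member belongs to such a set.

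Counts were analysed with edgeR 4.0.16 in R 4.3.3: filterByExpr (minimum count 10, total 15), TMM factors, quasi-likelihood F test without covariates, Benjamini-Hochberg adjustment over 768 miRNAs, threshold 0.05. CPM are counts relative to TMM-scaled library size, per 1e6. SE is the absolute log2 fold change over the square root of F, and intervals use the degrees of freedom of the fit. Ratios had 0.5 added to each count for log2 values and were tested by exact permutation over libraries. Alternatives used RLE factors, library totals, other filters, DESeq2 1.42.0, limma-voom (limma 3.58.1), a replicate block, a loess correction for GC content and each library left out. No pair of replicates agreed within sampling noise (chi-square per degree of freedom 124 to 4015). The members and lists were chosen with earlier results of these data known. Named miRNAs are the members, the 5 profiles most like miR-181a-5p and miR-181a-2-3p, miRNAs at 0 in all resistant libraries, markers, and the most abundant and the called miRNAs of each list.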

Additional observations from a re-analysis of the deposited data

How the results depend on the processing

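miR-181a-3p had 0 counts in all resistant libraries and entered the filtered fits through the sensitive ones. It passed under all 15 alternatives, which therefore give no separate support. Over the 9 that kept all libraries, miR-181a-5p lost its call with RLE factors (log2 fold change -2.23) and with a minimum mean of 10 CPM (-2.16), where miR-181b-3p, miR-181b-2-3p and miR-181c-5p were not tested. miR-181c-5p passed with DESeq2 (-1.60) and with the GC correction (-1.51), as did miR-181b-5p with the GC correction (-1.27). miR-181b-2-3p was positive with library totals (0.10), with the GC correction (0.23) and with the replicate block and GC correction together (0.12); the cause was not tested.

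With 1 library left out, log2 fold changes ran from -2.86 to -1.95 for miR-181a-5p, -1.58 to -0.95 for miR-181b-5p, -1.86 to -1.42 for miR-181c-5p, -1.53 to -0.87 for miR-181c-3p and -0.20 to 0.27 for miR-181b-2-3p, which was not tested without sensitive replicate 2 or resistant replicate 2. The log2 bound ran from -10.04 to -8.78 for miR-181a-3p and from -5.93 to -4.64 for miR-181b-3p. The log2 ratio of miR-181c-5p to miR-181c-3p ran from -0.62 to 0.16, and the difference in the share of miR-181c-5p among the 5p arms from -0.073 to 0.36 percentage points. Of 118 alternative values of ratios and shares, 115 kept their direction, and the exceptions concern miR-181c-5p.

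The number of miRNAs called was 32, against 21 with RLE factors, 162 without a filter, 13 with a minimum mean of 10 CPM, 149 with DESeq2 and 75 with the GC correction, and 4 (without sensitive replicate 2) to 231 (without resistant replicate 3) with 1 library left out. Members called lower were 3, against 1 with a minimum mean of 10 CPM, 5 with the GC correction and 1 to 6 with 1 library left out. Same-numbered libraries did not deviate together throughout (r = -0.062, 0.256 and 0.130), and sensitive replicate 1 correlated best with resistant replicate 3. Deviations were taken from the mean of each group, which resistant replicate 3 moves most. This check therefore cannot decide whether the numbers pair the libraries. With the replicate number as a block 23 miRNAs and the same number of members, 3, were called. Low counts limit miR-181b-2-3p and miR-181b-3p most.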
